A study of Homo sapiens with 8 samples.

Results

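The ERBB receptors are tyrosine kinases at the cell surface, and the 10 genes described here encode proteins that bind them from the inside or limit them. They were taken by gene symbol from the count table: GRB2, GRB7, SHC1, GAB1, GAB2, CBL, CBLB, ERRFI1, LRIG1 and RNF41. Each symbol matched 1 gene, so the set holds 10 of the 30434 genes in the table. The rule used symbols and no measured values, but the symbols were listed with earlier results of these data known.

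RNA was sequenced from SKBR3, an established human breast cancer line with amplified ERBB2 (HER2). The 4 control libraries come from cells whose genotype is given as WT, and the 4 knockdown libraries from a stable derivative of the same line carrying lentiviral short hairpin RNAs against FOXA1, a pioneer transcription factor of luminal cells. Both groups grew in the same serum-supplemented medium. The labels mention 3 individual hairpins without saying whether cells received them together, and give neither a control vector nor the origin of the replicates, so the p-values measure the spread between these libraries, which may be technical.

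In an active ERBB receptor, phosphorylated tyrosines on the tail are docking sites. SHC1 and GRB2 read those sites and pass the signal to RAS, and the docking proteins GAB1 and GAB2 hang on GRB2 and bring in PI3-kinase and the phosphatase SHP2. Ubiquitin ligases of the CBL family and RNF41 mark receptors for removal, ERRFI1 blocks the kinase domain, and LRIG1 lowers receptor levels at the membrane. SKBR3 cells are known for very high ERBB2 signalling, in which adaptors and brakes of this kind act.

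FOXA1 was lower in every knockdown library, at 3.56 to 4.26 CPM against 189 to 193 CPM in control. CPM is a gene's count per 1000000 counts of its library after TMM scaling, which corrects for differences in composition. Library totals lay between 19087878 and 23786684 counts. The 6 epithelial and ERBB2 markers together made up 18300 to 20400 CPM in control and 11500 to 12400 CPM in knockdown, and they did not go one way. Mean CPM was lower in knockdown for ERBB2 itself (7310 against 1340), KRT7 (2200 against 637) and KRT19 (2650 against 723), and higher for EPCAM (179 against 226), KRT8 (4520 against 5620) and KRT18 (2310 against 3460). Of 3 leukocyte markers 2 were in the table and summed to 4.4 to 5.65 CPM in control and 0.139 to 1.11 CPM in knockdown. The sum was mostly CD68, with a mean of 4.94 CPM in control and 0.589 CPM in knockdown. PTPRC was at most at 3 counts in any library. The 3 endothelial markers summed to 20.7 to 22.1 CPM in control and 19.7 to 22.4 CPM in knockdown, with CDH5 at a mean of 16.1 and 20.1 CPM, VWF at 5.22 and 0.845 CPM, and PECAM1 at most at 6 counts. The 3 fibroblast markers summed to 5.13 to 6.93 CPM in control and 10.8 to 11.9 CPM in knockdown, where COL3A1 had 90 to 104 counts against at most 1 in control. PDGFRB had a mean of 0.410 CPM in control and 2.83 CPM in knockdown, and COL1A1 went the other way, with 5.38 and 4.33 CPM. The 4 basal markers summed to 2.24 to 2.99 CPM in control and 8.80 to 10.2 CPM in knockdown, a difference made up by TP63, with a mean of 0.147 and 7.86 CPM. KRT5 was at 1.14 and 1.31 CPM, KRT14 at 0.0232 and 0.262 CPM, and ACTA2 was lower in knockdown, at 1.33 and 0.0674 CPM. No marker in the table was at 0 in all libraries. The part of these markers in the results below was not tested, and in bulk RNA fewer cells of a type and less RNA per cell cannot be told apart.

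To show where transcription of members that moved apart begins, the stretch from 250 bases before to 50 after an annotated start is printed for LRIG1 and GAB2, with the largest fall and rise of the set, and for RNF41, which fell while the gene of its receptor ERBB3 rose. LRIG1, GAB2 and RNF41 have 4, 2 and 2 entries, the first is shown, and which start these cells use was not measured. The sequences are RefSeq's, on GRCh38.p14, and 7 of the 10 members had an entry, GRB7, GAB1 and CBL being without. All 3 genes lie on the minus strand, and each sequence runs 5′ to 3′ along that strand, with CG dinucleotides in capitals.
LRIG1 (chr3:66501072-66501371): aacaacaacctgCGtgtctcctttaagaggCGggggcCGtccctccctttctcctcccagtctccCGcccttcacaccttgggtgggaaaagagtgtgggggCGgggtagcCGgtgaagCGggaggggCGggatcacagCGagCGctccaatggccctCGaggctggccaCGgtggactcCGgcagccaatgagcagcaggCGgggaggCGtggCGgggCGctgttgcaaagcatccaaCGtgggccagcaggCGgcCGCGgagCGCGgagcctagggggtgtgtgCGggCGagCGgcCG
RNF41 (chr12:56221873-56222172): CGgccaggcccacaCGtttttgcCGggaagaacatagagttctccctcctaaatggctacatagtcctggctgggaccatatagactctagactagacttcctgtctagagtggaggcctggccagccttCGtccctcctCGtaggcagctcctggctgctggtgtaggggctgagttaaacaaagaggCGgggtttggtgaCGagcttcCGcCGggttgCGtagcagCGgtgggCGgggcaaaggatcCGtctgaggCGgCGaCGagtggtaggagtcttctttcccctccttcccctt
GAB2 (chr11:78417771-78418070): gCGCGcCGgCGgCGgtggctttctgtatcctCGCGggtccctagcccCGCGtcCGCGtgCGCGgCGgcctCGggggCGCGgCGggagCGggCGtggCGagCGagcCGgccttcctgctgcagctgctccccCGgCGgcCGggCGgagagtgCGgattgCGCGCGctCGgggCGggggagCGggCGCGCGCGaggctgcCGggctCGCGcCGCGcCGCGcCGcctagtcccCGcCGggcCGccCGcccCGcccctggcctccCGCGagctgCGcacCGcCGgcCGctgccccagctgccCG

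The GAB2 stretch held 58 CG dinucleotides and was 84.0% G or C, the LRIG1 stretch held 27 and was 69.3%, and the RNF41 stretch held 16 and was 59.0%. Entries not shown differed: the second of GAB2 held 1 CG and was 40% G or C. Those of LRIG1 were 65.3% to 74.7%, and the second of RNF41 was 58.7%. The median over all 35116 promoter entries was 58.7%. Forkhead-type motifs, searched on both strands as the letters TGTTTAC, the variant TATTTAC and the variant TGTTGAC, were found in 0 of the 17 entries of the 7 members. Some entries of RNF41, CBLB and LRIG1 overlap, so the 17 are not separate stretches. Of all promoter entries of the same length, 8.10% held at least 1 of the 3 motifs. The absence says only that these letters are not in these windows.

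All 10 members passed the filter on low counts, and all 10 differed between the groups at an adjusted p under 0.05 in edgeR's quasi-likelihood test with Benjamini-Hochberg (BH) adjustment over every gene tested, the source of each adjusted p given here. The background was high: 77.1% of the 16430 tested genes were called, 37.7% lower and 39.4% higher in knockdown, and in 72.0% the CPM of the groups did not overlap. Being called is therefore close to what most genes showed. Among the members 4 were lower (GRB7, CBL, RNF41 and LRIG1) and 6 higher (GRB2, SHC1, GAB1, GAB2, CBLB and ERRFI1). Changes of at least 2-fold were found in 5 of 10, against 28.3% of all tested genes. The median absolute log2 fold change was 1.03 over the members and 0.513 over all tested genes, and the signed medians were 0.27 and 0.0194. By GENCODE 29 on GRCh38, GRB2 lies on chromosome 17 at 75318076 to 75405709 and SHC1 on chromosome 1 at 154962298 to 154974395, both on the minus strand. GAB1 lies on chromosome 4 at 143336762 to 143474568 (plus), and GAB2 on chromosome 11 at 78215297 to 78418348 (minus). CBL lies on chromosome 11 at 119206276 to 119313926 (plus), CBLB on chromosome 3 at 105655461 to 105869552 (minus) and RNF41 on chromosome 12 at 56202175 to 56221933 (minus). ERRFI1 lies on chromosome 1 at 8004404 to 8026308 and LRIG1 on chromosome 3 at 66378797 to 66501263, both minus. The groups did not overlap in any member. Each had p = 0.0286 by exact permutation of the 8 libraries (two-sided), the smallest that 4 against 4 can give.

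**Figure D1:**
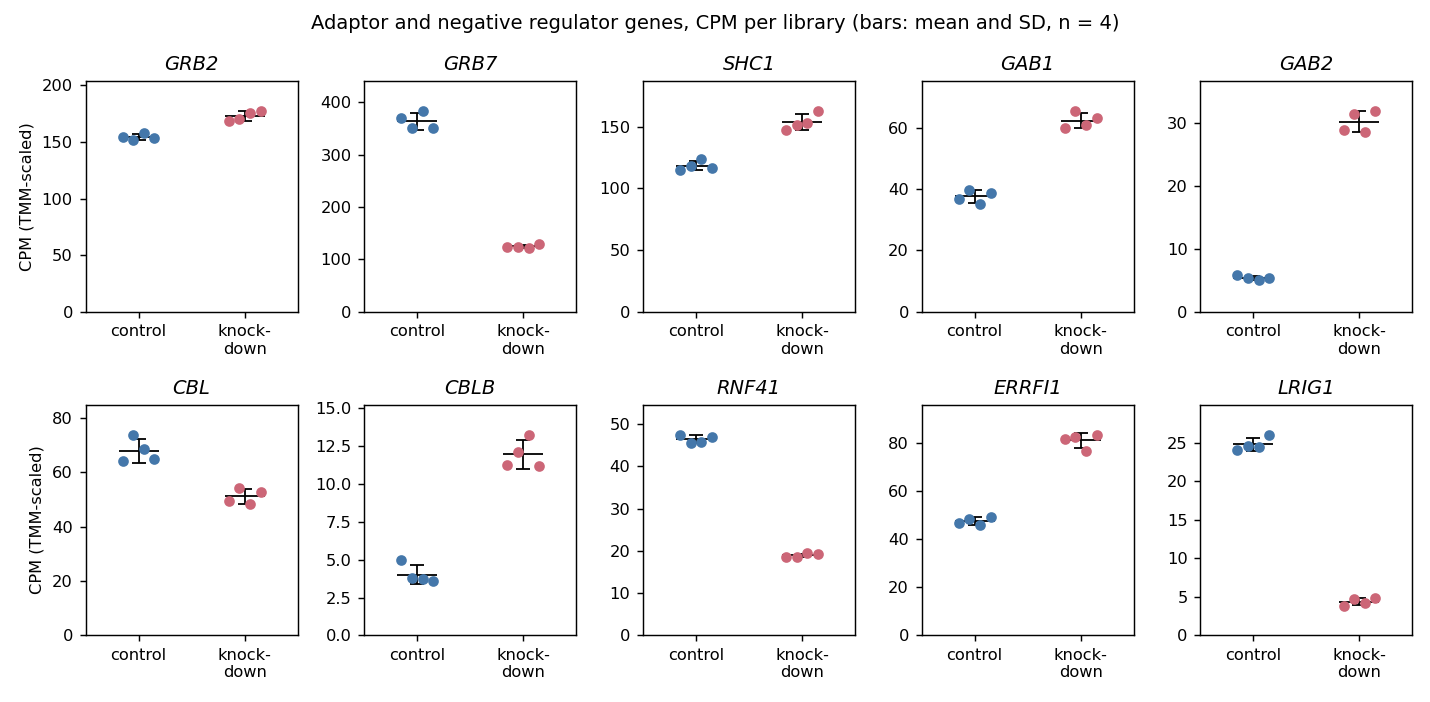
CPM of each member in every library, with control in blue, FOXA1 knockdown in red, and bars for the mean and SD of 4 libraries. The vertical axes start at 0 and differ between genes. GRB7 and LRIG1 drop to 34.3% and 17.6% of their control level, GAB2 climbs 5.62-fold, and no member's groups overlap.

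The adaptors that bind phosphotyrosine directly moved apart. GRB7, an SH2 adaptor that binds ERBB2 and is co-amplified with it, was the most abundant member in control. Its gene lies on chromosome 17 at 39737927 to 39747291 on the plus strand (GENCODE 29, GRCh38). It stood at 369, 351, 383 and 351 CPM in the control libraries and at 124, 124, 122 and 129 CPM in the knockdown libraries. Every knockdown library lay far below every control library. Means were 363 ± 15.7 CPM for control and 125 ± 2.95 CPM for knockdown (SD, n = 4 each), a 2.91-fold fall (log2 fold change -1.54 ± 0.0353 SE, BH-adjusted p = 2.16e-22).

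GRB2, which couples receptors to the RAS activator SOS, was at 154, 152, 158 and 153 CPM in control and 169, 170.3, 175 and 177 CPM in knockdown. The shift was small but exceeded the spread in either group. The rise was 1.12-fold (log2 fold change 0.16 ± 0.0209 SE, BH-adjusted p = 1.24e-04). It depended in size on scaling, reaching a log2 fold change of 0.25 with library size only. SHC1, the scaffold that is phosphorylated on receptors and then recruits GRB2, was at 115, 118, 123 and 117 CPM in control and 148, 152, 153 and 163 CPM in knockdown. All knockdown libraries were above the highest control, and knockdown replicate 4 stood highest. The rise was 1.30-fold (log2 fold change 0.38 ± 0.0366 SE, BH-adjusted p = 1.83e-09). SHC1 shares 335 bp of exon with PYGO2 on the same strand, where reads could be assigned to either gene. PYGO2 averaged 1738.25 counts in control and 1578.75 in knockdown, against 2518 to 2709 and 3002 to 3706 counts for SHC1.

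Both docking genes rose, by unequal amounts. GAB2 was near the bottom of the set in control, with 5.77, 5.31, 4.99 and 5.39 CPM, and reached 28.9, 31.3, 28.5 and 31.8 CPM in knockdown. The lowest knockdown library was well above the highest control. This 5.62-fold rise was the largest of the set (log2 fold change 2.49 ± 0.0590 SE, BH-adjusted p = 1.37e-20). GAB1 was at 36.9, 39.8, 35.1 and 38.7 CPM in control and at 60.0, 65.5, 60.9 and 63.1 CPM in knockdown. It rose 1.66-fold (log2 fold change 0.73 ± 0.0484 SE, BH-adjusted p = 5.27e-13), and control replicate 3 and knockdown replicate 1 were the low library of their groups.

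The ubiquitin ligases did not move as a family. CBL, the ligase that marks activated EGFR for lysosomal degradation, was at 64.3, 73.8, 68.6 and 64.9 CPM in control and 49.6, 54.2, 48.3 and 52.7 CPM in knockdown. The groups lay close, with 54.2 CPM in the highest knockdown library and 64.3 CPM in the lowest control. The fall left 75.4% of the control level (log2 fold change -0.41 ± 0.0594 SE, BH-adjusted p = 6.22e-08). CBL overlaps MCAM on the opposite strand over 509 bp, and MCAM averaged 96.0 counts in control and 15.75 in knockdown, against 949 to 1324 counts for CBL in the knockdown libraries.

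CBLB, the close relative of CBL, was scarce: 4.95, 3.77, 3.75 and 3.58 CPM in control and 11.3, 12.1, 13.2 and 11.2 CPM in knockdown. Control replicate 1 stood above the other controls, and still below the lowest knockdown library. The rise was 2.98-fold (log2 fold change 1.57 ± 0.120 SE, BH-adjusted p = 4.00e-13). It had the widest relative spread of any member, a coefficient of variation of 15.7% in control, while the smallest in the set was 1.73% for GRB2 in control.

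RNF41, also called NRDP1, is the ligase that sets the steady-state level of ERBB3. It was at 47.5, 45.7, 45.7 and 47.1 CPM in control and 18.6, 18.6, 19.4 and 19.2 CPM in knockdown. Both groups were tight and far apart. It fell 2.45-fold (log2 fold change -1.30 ± 0.0218 SE, BH-adjusted p = 3.52e-18).

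The remaining brakes went in opposite directions. ERRFI1, known as MIG6 or RALT, binds the ERBB kinase domain and is induced by the signal it restrains. Its values were 46.6, 48.2, 46.1 and 49.4 CPM in control and 81.8, 82.4, 76.6 and 83.4 CPM in knockdown. Knockdown replicate 3 was the low library of its group and still lay above every control. The rise was 1.70-fold (log2 fold change 0.77 ± 0.0355 SE, BH-adjusted p = 1.86e-14).

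LRIG1, a transmembrane protein with leucine-rich repeats and immunoglobulin domains, is known to promote loss of ERBB receptors. It was at 24.04, 24.6, 24.5 and 26.03 CPM in control and 3.83, 4.67, 4.18 and 4.81 CPM in knockdown, which is 82 to 114 counts per knockdown library. The knockdown values were all far below the lowest control value. This 5.67-fold fall was the largest of the set (log2 fold change -2.50 ± 0.0797 SE, BH-adjusted p = 6.89e-20). LRIG1 shares 907 bp of exon with SLC25A26 on the opposite strand. SLC25A26 averaged 230.5 counts in control and 225.25 in knockdown.

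Levels were compared between genes per kb of merged exon. In control GRB7 led with 101 CPM per kb, followed by GRB2 with 32.7, SHC1 with 27.3, ERRFI1 with 11.4, RNF41 with 7.11 and CBL with 5.78. Below these came GAB1 with 3.72, LRIG1 with 3.52, GAB2 with 0.792 and CBLB with 0.327 CPM per kb. GAB1 and LRIG1 overlapped between libraries and the other neighbours in this order did not. In knockdown GRB2, SHC1 and GRB7 were level at 36.7, 35.4 and 34.7 CPM per kb, each overlapping the next. ERRFI1 followed with 19.4, GAB1 with 6.16, GAB2 with 4.45 and CBL with 4.36 CPM per kb, the last 2 overlapping. RNF41 with 2.90, CBLB with 0.974 and LRIG1 with 0.622 CPM per kb closed the order. With the longest transcript as the length, the control order was the same, and in knockdown GRB7 came first, before GRB2 and SHC1.

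GRB7 accounted for 41.8% ± 1.08 of the summed CPM of the 10 members in control and for 17.5% ± 0.233 in knockdown (SD, n = 4 each). The sum went from 870.0 ± 16.5 CPM in control to 711 ± 17.9 CPM in knockdown, while the other 9 members together went from 507 ± 5.36 CPM in control to 587 ± 15.5 CPM in knockdown.

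Ratios of counts within a library do not depend on scaling, and 6 were compared: pairs of related members, and members with the receptor they act on. Each differed between the groups with no overlap (exact two-sided permutation p = 0.0286, the smallest possible, and 0.0286 after Benjamini-Hochberg adjustment over the 6 ratios, n = 4 each). Every gene in these ratios already had groups that did not overlap. In GRB7 to GRB2, CBL to CBLB and RNF41 to ERBB3 the genes went opposite ways, which settled the outcome in advance. No share over other gene pairs was taken, so the ratios serve to give sizes. GRB7 counts per ERBB2 count were 0.0495, 0.0501, 0.0494 and 0.05003 in control and 0.0930, 0.0914, 0.0959 and 0.0923 in knockdown. GRB7 thus fell less than ERBB2 itself, whose mean went from 7308 to 1340 CPM, and the log2 difference of the ratio was 0.90 (SE 0.0158). The GRB7 to GRB2 count ratio went from 2.35 ± 0.0641 to 0.722 ± 0.0181 (SD), so that the order of these adaptors by counts was inverted. Counts are not corrected for gene length. Per kb of merged exon the ratio went from 3.08 ± 0.0840 to 0.946 ± 0.0237 (SD), and by the longest transcript GRB7 stayed above GRB2 in knockdown.

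The docking pair shifted towards GAB2: there were 6.39, 7.49, 7.05 and 7.18 GAB1 counts per GAB2 count in control and 2.08, 2.09, 2.14 and 1.98 in knockdown. The log2 difference was -1.76 (SE 0.0535). The CBL to CBLB ratio was 13.0, 19.6, 18.3 and 18.1 in control and 4.41, 4.49, 3.65 and 4.70 in knockdown (log2 difference -1.99, SE 0.155), with control replicate 1 the low library. CBL counts still exceeded CBLB counts in every knockdown library.

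The receptor ratios separated the brakes further. RNF41 counts per ERBB3 count fell from 0.180 ± 0.00435 to 0.0541 ± 0.00312 (SD), a log2 difference of -1.74 (SE 0.0444), since RNF41 fell while ERBB3 rose from 258 to 351 CPM. The genes lie 98.7 kb apart on chromosome 12 and have the same median change among their nearest genes, given below. ERBB4 had 4 to 9 counts in the control libraries and 0 in each knockdown library, where 0 allows up to 3 counts, and was below the filter. ERRFI1 counts per EGFR count changed least, from 0.231, 0.232, 0.222 and 0.232 in control to 0.214, 0.192, 0.196 and 0.202 in knockdown. ERRFI1 and EGFR both rose, EGFR by slightly more, and the log2 difference was -0.19 (SE 0.0362).

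**Figure D2:**
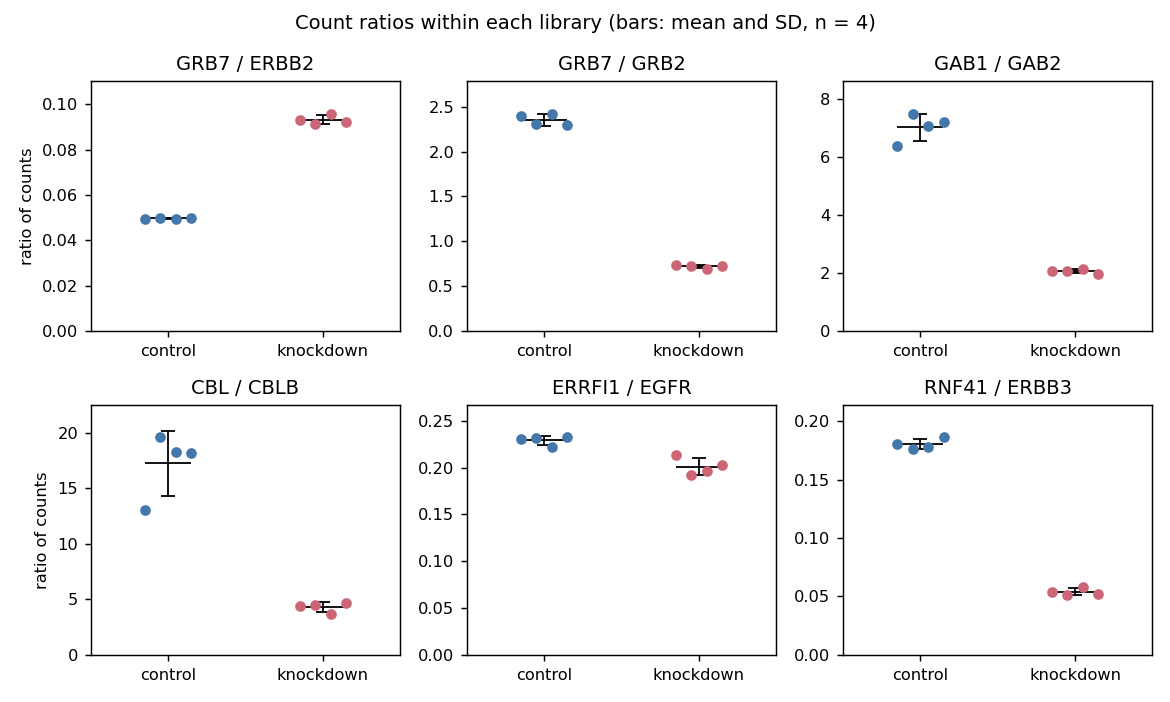
Ratio of the counts of 2 genes within each library, control in blue and FOXA1 knockdown in red, with bars for the mean and SD of 4 libraries and axes starting at 0. GRB7 per ERBB2 is higher in knockdown, the other 5 ratios are lower, and ERRFI1 per EGFR moves least.

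Whether fold changes in these libraries run along chromosomes was not tested. Each member was set beside the median log2 fold change of its 50 nearest tested genes. That median was -0.51 around GRB7, -0.32 around GRB2, -0.30 around SHC1, -0.29 around GAB2, -0.27 around GAB1, -0.22 around CBL and -0.15 around LRIG1. It was 0.05 around ERRFI1, 0.27 around CBLB and 0.29 around RNF41. GRB2, SHC1, GAB1 and GAB2 thus rose where their neighbours were mostly lower, and RNF41 fell where its neighbours were mostly higher. With this regional shift taken out, all 10 members kept their direction and stayed past the threshold. The log2 fold change was then 0.48 for GRB2, 0.67 for SHC1, -1.03 for GRB7 and -0.19 for CBL, the last at a BH-adjusted p of 1.63e-03. The others were -2.36 for LRIG1, -1.59 for RNF41, 0.71 for ERRFI1, 1.00 for GAB1, 1.30 for CBLB and 2.78 for GAB2. The shift came from the same libraries and was treated as known. Staying past the threshold therefore does not allow for the error of the shift itself.

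**Figure D3:**
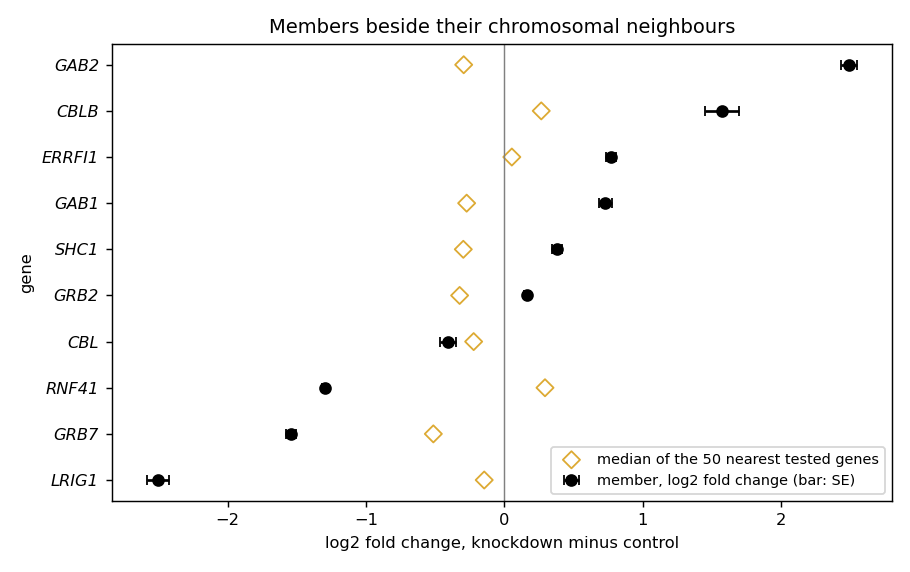
Log2 fold change of each member, knockdown minus control (black, bar for the SE), beside the median of its 50 nearest tested genes (open diamonds). The diamonds lie between -0.51 and 0.29, and the members between -2.50 and 2.49. CBL, at -0.41, lies nearest to its neighbours, at -0.22.

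GRB7 starts 7.50 kb beyond the end of ERBB2 in the 17q12 segment that is amplified in this line. Of 10 listed neighbours 9 were tested, and 7 were lower, 1 higher and 1 not past the threshold, with a median log2 fold change of -0.837. Called genes made up 88.9%, against 77.1% of all tested genes. By the naming rule, the falls were ERBB2 (log2 fold change -2.45), PGAP3 (-0.95) and STARD3 (-0.84). PNMT (-3.905) and TCAP (-1.033) were also called lower, but had under 50 counts on average and so lay outside the rule. PNMT had 21 to 27 counts in the control libraries and 0 to 3 in the knockdown libraries. PGAP3, a lipid-remodelling gene for GPI anchors, went from 223 ± 10.8 CPM in control to 115 ± 3.83 CPM in knockdown, and STARD3, a cholesterol-binding protein of endosomes, from 406 ± 15.6 CPM in control to 227 ± 4.72 CPM in knockdown (SD, n = 4 each). IKZF3, a lymphoid zinc finger factor, rose from 3.82 ± 0.538 CPM in control to 10.4 ± 1.21 CPM in knockdown (SD, n = 4 each). PGAP3 and MIEN1 overlap opposite ends of ERBB2 on the other strand, so their reads there cannot be told apart from those of ERBB2 without strand. MIEN1, picked out after its values were seen, lies on the GRB7 side of ERBB2 and had 313, 313, 327 and 303 CPM in control and 301, 286, 310.2 and 313 CPM in knockdown, which overlap. Its log2 fold change of -0.05 missed the threshold (BH-adjusted p = 0.168), and the sign turned under upper-quartile scaling, under library-size scaling and with the regional shift removed. GRB7 was thus lower by more than STARD3 and PGAP3 and by less than ERBB2, though these differences between genes were tested only for ERBB2, by the ratio above.

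**Figure D4:**
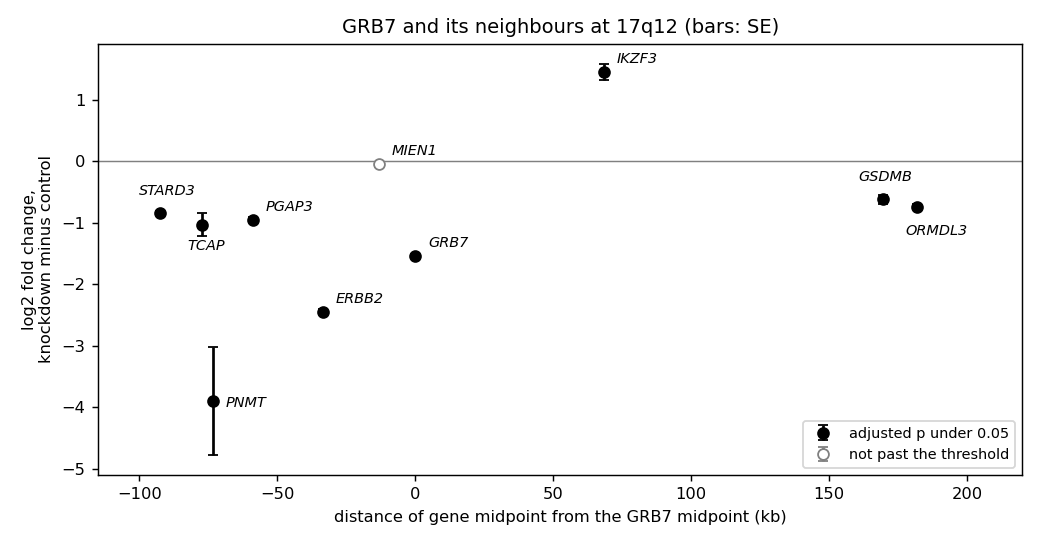
Log2 fold change (knockdown minus control, bars for the SE) of GRB7 and 9 neighbours against the distance of each gene's midpoint from that of GRB7 in kb. Filled points passed the threshold. MIEN1, at -0.05, lies between ERBB2 at -2.45 and GRB7 at -1.54, and IKZF3 is the only point well above 0.

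The wider set of receptor adaptors was examined through a list of 27 further genes, of which 24 were in the table and 21 were tested. Of these 5 were lower, 11 higher and 5 not past the threshold, and the median log2 fold change was 0.287. Called genes made up 76.2%, against 77.1% of all tested genes. With library size only, the split was 3 lower and 12 higher. GRB10 and GRB14 are the other members of the GRB7 family, and both rose while GRB7 fell. GRB10 was at 32.9, 32.8, 32.9 and 31.5 CPM in control and 251, 263, 247 and 263 CPM in knockdown (log2 fold change 2.98 ± 0.0271 SE, BH-adjusted p = 1.67e-27). GRB14 was low throughout, with 5 to 15 counts per control library and 74 to 131 per knockdown library (log2 fold change 3.29 ± 0.324 SE, BH-adjusted p = 4.25e-12). The third rise named by the rule was SH2B3, or LNK, an adaptor of cytokine receptors, from 1.31 ± 0.293 CPM in control to 5.38 ± 0.593 CPM in knockdown (SD, n = 4 each).

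The falls in this list that met the naming rule were SHB, IRS1 and CRK. The other 2 of the 5 were SOS2 and PTPN11, named after their values were seen (log2 fold changes of -0.19 and -0.13). The groups overlapped in both, with two-sided exact permutation p of 0.0857 for SOS2 and 0.0571 for PTPN11. Neither was called lower under upper-quartile or library-size scaling. SHB, an SH2 adaptor, was at 44.8, 46.8, 43.8 and 47.6 CPM in control and 11.7, 12.6, 12.1 and 12.4 CPM in knockdown (log2 fold change -1.91 ± 0.0362 SE, BH-adjusted p = 1.11e-20). IRS1, the docking protein of the insulin and IGF receptors, went from 14.4 ± 0.616 CPM in control to 6.04 ± 0.228 CPM in knockdown, and CRK, an adaptor of focal adhesions, from 82.9 ± 2.98 CPM in control to 66.8 ± 0.188 CPM in knockdown (SD, n = 4 each).

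Among 32 further negative regulators and trafficking genes, 31 were tested. Of these 15 were lower, 14 higher and 2 not past the threshold, with a median log2 fold change of -0.0892. Called genes made up 93.5%, against 77.1% of all tested genes. With library size only, the split was 10 lower and 15 higher. SH3KBP1, or CIN85, the partner that joins CBL to the endocytic machinery, was at 1.33, 1.63, 1.80 and 1.85 CPM in control and 25.4, 24.4, 22.4 and 26.1 CPM in knockdown (log2 fold change 3.89 ± 0.118 SE, BH-adjusted p = 8.41e-22). RIN1, which activates RAB5 on early endosomes, rose from 1.65 ± 0.180 CPM in control to 4.90 ± 0.257 CPM in knockdown, and the ubiquitin ligase NEDD4 from 57.3 ± 5.74 CPM in control to 127.9 ± 6.40 CPM in knockdown (SD, n = 4 each).

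ERBIN, a scaffold that binds ERBB2, fell from 40.2 ± 4.12 CPM in control to 12.9 ± 0.691 CPM in knockdown, and PTPRJ, a receptor phosphatase that acts on EGFR, from 54.4 ± 3.21 CPM in control to 21.9 ± 0.400 CPM in knockdown (SD, n = 4 each). USP8, the deubiquitinase that stabilises RNF41, was at 135, 133, 106 and 136 CPM in control and 83.9, 81.7, 78.1 and 72.4 CPM in knockdown (log2 fold change -0.69 ± 0.0982 SE, BH-adjusted p = 1.06e-04), with control replicate 3 the low control. Outside the rule, and picked out after their values were seen, the relatives of members split as well. LRIG2 (log2 fold change 0.43) and LRIG3 (0.73) rose while LRIG1 fell, and CBLC (-0.37) fell with CBL.

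**Figure D5:**
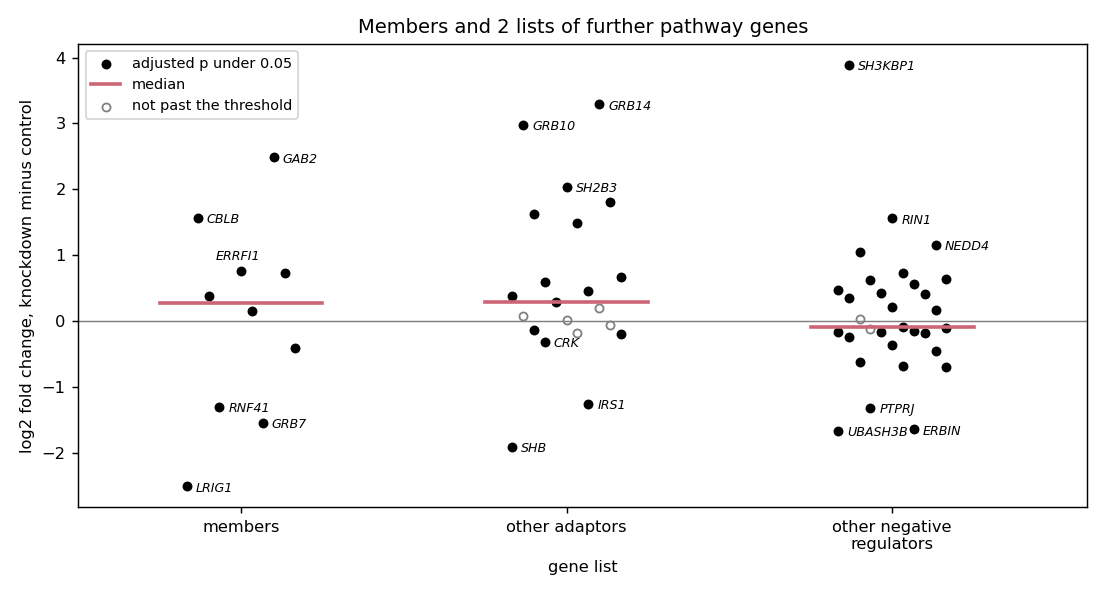
Log2 fold change (knockdown minus control) of the 10 members, 21 other adaptors and 31 other negative regulators, with the list medians as red lines. Filled points passed the threshold. Each list holds genes on both sides of 0, and the medians of 0.27, 0.287 and -0.0892 lie near it.

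LRIG1, at -2.50, had the largest absolute log2 fold change by a margin smaller than its SE. GAB2, at 2.49, came out larger under upper-quartile scaling (2.55 against -2.44), library-size scaling (2.57 against -2.42), a minimum mean of 50 counts (2.50 against -2.49) and removal of the regional shift (2.78 against -2.36), and also without some of the libraries. By the rule LRIG1 was taken, and the 3 genes of 12420 whose log2 CPM followed it most closely over the 8 libraries were UBAP2 (Pearson's r of 0.9996), KLF7 (0.9993) and EGF (0.9992). The measure includes the difference between the groups and rests on the same libraries and depths, and 1360 genes had an r over 0.99. UBAP2 went from 71.3 ± 0.319 CPM in control to 49.4 ± 1.01 CPM in knockdown, the transcription factor KLF7 from 35.6 ± 2.29 CPM in control to 6.42 ± 0.641 CPM in knockdown, and the EGFR ligand gene EGF from 37.1 ± 0.865 CPM in control to 0.572 ± 0.199 CPM in knockdown (SD, n = 4 each).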

How the data were processed

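mRNA libraries, 4 control and 4 FOXA1 knockdown, were sequenced as paired ends on an Illumina NextSeq, per the labels' protocols. The authors deposited whole read counts per gene with Ensembl identifiers and symbols. The submitters' processing notes name FastQC, Salmon 1.9, DESeq2 3.16 and hg38 without their roles. If Salmon made the counts, they are rounded estimates that divide shared reads by a model. The use of strand is not given in the sources used here.

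Counts were tested with edgeR 4.0.16 in R 4.3.3: filterByExpr (minimum count 10, minimum total 15), TMM scaling, glmQLFit with robust=TRUE and glmQLFTest, Benjamini-Hochberg adjustment over 16430 genes, threshold 0.05. SEs come from replicate log2 CPM with 0.5 added to each count. Single values and ratios were tested by exact permutation over 70 divisions. On simulated counts of 16430 genes, 187 of 200 changed genes were recovered, 37 of 50 at a log2 change of 0.3, and 15 unchanged genes were called. The changed genes had a mean of at least 50 counts and random directions, and all genes shared 1 dispersion. With so few changed genes, the simulation cannot check scaling or false calls in data where 77.1% of genes were called. Positions and exon lengths are from GENCODE 29 (96.5% of identifiers matched). Alternatives were other scalings, filters and tools (DESeq2 1.42.0, limma 3.58.1), a replicate block, removal of the regional shift and leaving out each library. Genes outside the members are named when they had 1 of the 3 largest rises or falls of their list; this needed groups that do not overlap, 50 or more counts on average and a call at the threshold. The 3 genes most like LRIG1, the member with the largest absolute fitted change, were taken by Pearson's r. The members and lists were chosen with earlier results of these data known. Figures used matplotlib 3.10.9.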

Additional observations from a re-analysis of the deposited data

Results flagged for a closer look

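In each group of 4 libraries the gap between the highest or lowest library and its nearest neighbour was divided by the group's range, and a library was singled out where this exceeded Dixon's critical value at the 95% level. Of 32 groups of values (10 members and 6 ratios in both conditions) 2 were singled out, where chance gives about 1.6.

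CBLB was high in control replicate 1, at 4.946 CPM against 3.577 to 3.768 CPM in the other controls (gap of 0.860 of the range). Without that library its log2 fold change was 1.69 in place of 1.57. The ERRFI1 to EGFR count ratio was low in control replicate 3, at 0.2223 against 0.2309 to 0.2323 (gap of 0.862). Without that library the log2 difference was -0.206 in place of -0.19. No cause was tested for either.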

How the results depend on the processing

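Over 18 alternatives to the fit, all 180 values of the 10 members kept their direction and stayed past the threshold, with a largest adjusted p of 1.63e-03 (edgeR, CBL with the regional shift removed). That p treats the shift as known and leaves out its error. Leaving out each library kept LRIG1 between -2.55 and -2.43, GAB2 between 2.45 and 2.52 and GRB2 between 0.15 and 0.18 on the log2 scale. Other adaptors called lower numbered 3 under upper-quartile and 3 under library-size scaling, against 5. The 3 were SHB, IRS1 and CRK, so SOS2 and PTPN11 were no longer called lower. With the regional shift removed, 2 of the 17q12 neighbours were called higher, against 1, and MIEN1 was at 0.505. MIEN1 also changed sign under upper-quartile scaling (0.005) and library-size scaling (0.0295). Over 22 named genes outside the members, MIEN1 among them, 393 of 396 values kept direction and call. Other named genes, such as SOS2, PTPN11, UBAP2, KLF7 and EGF, were not included.

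With the replicate number as a block, the ratio differences were 0.905 for GRB7/ERBB2, -1.70 for GRB7/GRB2, -1.76 for GAB1/GAB2, -1.99 for CBL/CBLB, -0.191 for ERRFI1/EGFR and -1.74 for RNF41/ERBB3. An exact sign-flip test of 4 pairs cannot give less than 0.125. Same-numbered deviations over 12420 genes correlated between -0.0355 and 0.168. For replicates 1, 2 and 4 this was above the best correlation with another number (0.0877 against 0.074, 0.168 against 0.00974 and 0.0661 against 0.0208). For replicate 3 it was below (-0.0355 against 0.0176). Whether the numbers mark pairs is not given and was not tested. The block changed no call among the members.

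Leaving out each library, for which the smallest exact p is 0.0571, gave differences from 0.891 to 0.914 for GRB7/ERBB2, -1.72 to -1.69 for GRB7/GRB2, -1.81 to -1.73 for GAB1/GAB2, -2.12 to -1.91 for CBL/CBLB, -0.220 to -0.169 for ERRFI1/EGFR and -1.78 to -1.71 for RNF41/ERBB3. Among the members depth was lowest for CBLB, with 79 counts in its lowest library.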
